A study of Mus musculus with 97 samples.

Results

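Histone H3 nucleosomes were mapped in mitotic and in interphase mouse embryonic stem (ES) cells after digestion with micrococcal nuclease (MNase) at the middle of 3 concentrations, 16, against 0.5 and 128 in the other digests. The labels give these concentrations without a unit. The data are the 28 lines of the authors' profile table (14.9% of its lines) that carry the H3 assay, the concentration 16 and either cell-cycle state, and they come from 4 of the study's 97 libraries. Each state has 7 site sets, each with a smoothed and an unsmoothed profile of 2001 positions, to 1000 bp on either side of a centre. The study as a whole followed transcription factor binding, accessibility, nucleosomes and gene expression through mitosis in these cells.

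Mitotic cells were E14tg2a ES cells (Tg2a in the labels) held in nocodazole at 50 ng/ml for 4 to 5 h, a microtubule poison that stops cells in mitosis, then harvested by shake-off and passed through a 10 µm filter. Interphase cells were the same line without nocodazole, trypsinised at the same time, and the labels name no sorting by phase for them. Both states were grown on gelatine with serum and LIF, were fixed with formaldehyde (FA), and had 2 libraries each. The authors' table pools the 2 libraries of a state into 1 profile, so there is 1 value per state and position. No spread between replicates can be given and no difference below has a test. The ± values are SDs of the unsmoothed values over the positions of a window within 1 pooled profile, and they say nothing of how replicates vary. Levels within 50 bp of a centre are means of smoothed values, and the SD beside them is still that of the unsmoothed values. The read depth behind the profiles and the number of sites averaged in each set are not given in the sources used here. The profiles hold no gene names, so the identity of the cells could not be checked against marker genes.

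Nucleosomes are the units into which DNA is wound around histone proteins, and MNase cuts the linker DNA between them. Immunoprecipitation with an antibody against H3, a core histone, keeps fragments that carry a nucleosome and drops fragments protected by other proteins. Active promoters and enhancers of interphase cells are known for a nucleosome-poor centre flanked by regularly spaced nucleosomes, called a phased array. EP300 is a histone acetyltransferase that marks active enhancers, and Oct4, Sox2 and Esrrb are transcription factors of the pluripotency network. A factor that stays on its sites in mitosis is said to bookmark them, and the labels of the table divide Esrrb sites into bookmarked and lost ones.

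Profile values are given here in units of 0.0001 of the deposited scale, which is not stated. The mean over all positions was close in the 2 states, at 0.997 to 1.04 times the interphase mean in mitosis over the 7 sets. A single position of an unsmoothed profile scattered about its neighbours by 7.14% to 11.6% of the profile's mean. The authors' smoothed profiles had from 2 to 11 local maxima, and the settings of the smoothing are not given in the sources used here. The shape of each array was therefore also measured on unsmoothed values. That second measure, the ripple, is the SD over positions 100 to 800 bp from the centre of a short running mean minus a long one, in percent of the mean there. It keeps waves of about nucleosome length and removes broad slopes. Independent scatter of single positions would alone give a ripple of 1.05% to 1.62%.

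**Figure D1:**
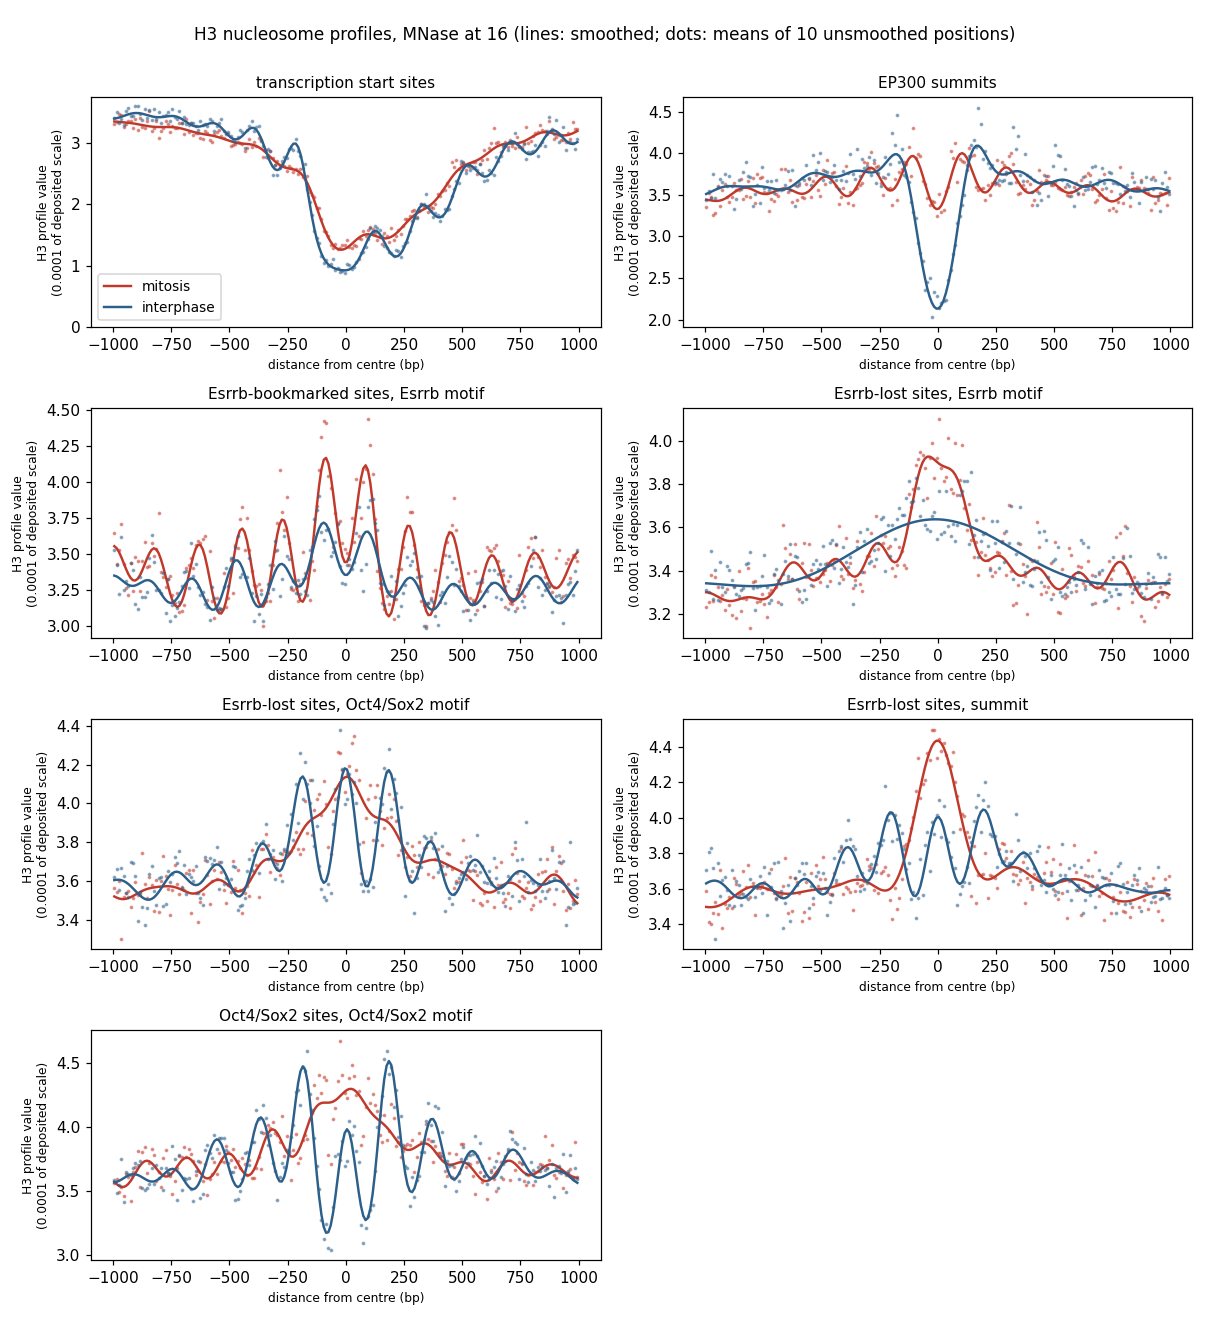
H3 profile value (in 0.0001 of the deposited scale) against distance from the centre in bp for 7 site sets, with mitosis in red and interphase in blue. Lines are the authors' smoothed values and dots are means of 10 unsmoothed positions. The central dip at EP300 summits reached 94.8% of the outer level in mitosis and 59.6% in interphase, and the vertical axes, other than the one for transcription start sites, do not start at 0.

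At transcription start sites, where promoters are read, the centre held more H3 in mitosis than in interphase, but remained far below the surroundings in both. The level within 50 bp of the start was 1.32 ± 0.169 in mitosis and 0.956 ± 0.171 in interphase, a ratio of 1.38. Relative to the level more than 800 bp away, that was 40.8% in mitosis and 29.4% in interphase. The lowest smoothed value within 300 bp was 39.1% of the outer level in mitosis and 28.5% in interphase. So the nucleosome-poor region was shallower in mitosis and was still the deepest dip among the 7 sets in that state.

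The dip also had a different outline on its 2 sides. Measured at the first position midway between its lowest value and the outer level of each side, it ran from -160 to 410 bp in mitosis, a width of 570 bp. In interphase it ran from -160 to 330 bp, a width of 490 bp. That interphase edge lies on a nucleosome peak, beyond which the unsmoothed level fell again, from 2.01 ± 0.306 at 330 bp to 1.78 ± 0.182 at 400 bp. The order of the widths also changed between digests. It was 610 bp in mitosis and 620 bp in interphase with H3 at 0.5, and 410 and 460 bp at 128. Without the H3 step, at 16, it was 530 bp in mitosis and 220 bp in interphase. Which side faces the gene is not stated in the table. Within 100 bp on the negative side the unsmoothed level was 1.38 ± 0.210 in mitosis and 0.985 ± 0.163 in interphase, 1.40 times. Within 100 bp on the positive side it was 1.42 ± 0.167 in mitosis and 1.13 ± 0.248 in interphase, 1.25 times. From 200 to 300 bp on the positive side, a gap between nucleosomes in interphase, the level was 1.68 ± 0.259 in mitosis and 1.40 ± 0.315 in interphase. From 200 to 300 bp on the negative side the order was the opposite, with 2.597 ± 0.255 in mitosis and 2.79 ± 0.320 in interphase.

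The phased array next to start sites was weaker in mitosis. The smoothed profile had 0 maxima that stood out by at least 5% of the profile's range in mitosis and 7 in interphase. With no minimum height asked for, it had 3 maxima in mitosis and 10 in interphase, and the deep dip raises the height that 5% of the range demands. The nucleosomes nearest the start in interphase were centred at -220 and 130 bp. At the -220 bp position the unsmoothed level was 2.55 ± 0.170 in mitosis and 2.96 ± 0.320 in interphase, and at the 130 bp position 1.52 ± 0.135 in mitosis and 1.595 ± 0.259 in interphase. Over the 5 interphase peaks within 600 bp the mean level was 2.34 in mitosis and 2.48 in interphase, and over the 6 interphase troughs it was 2.25 in mitosis and 2.00 in interphase. Thus peaks exceeded troughs by 0.090 in mitosis and by 0.482 in interphase. The troughs included the dip at the start itself (-10 bp), at 1.35 ± 0.155 in mitosis and 0.928 ± 0.215 in interphase. The central dip therefore enters this contrast, which is not one of the array alone. The peaks and troughs were chosen on the interphase profile, which favours a larger contrast in that state. The ripple, which does not depend on such a choice, was 3.46% in mitosis and 8.21% in interphase, where scatter would give 1.43% in mitosis and 1.54% in interphase. The slope of the dip remained, and the running means of the 2 states correlated over positions at r = 0.97 (n = 2001 positions, neighbouring ones sharing sites and libraries).

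EP300 summits had the largest difference in central H3 among the 7 sets. The level within 50 bp was 3.43 ± 0.382 in mitosis and 2.25 ± 0.379 in interphase, a ratio of 1.53. The difference of 1.19 was several times the SD over positions in either state. Relative to the outer level, the centre stood at 97.8% in mitosis and 62.9% in interphase. The dip that marks an accessible enhancer was thus a narrow notch of 94.8% at its lowest in mitosis, against 59.6% in interphase, where it measured 150 bp across midway up its walls.

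The nucleosomes beside EP300 summits also stood at different places in the 2 states. The first maxima on either side of the summit were centred at -110 and 100 bp in mitosis, 210 bp apart, and at -180 and 170 bp in interphase, 350 bp apart. At the -180 bp position the unsmoothed level was 3.57 ± 0.422 in mitosis and 4.26 ± 0.549 in interphase, and at 170 bp it was 3.60 ± 0.264 in mitosis and 4.34 ± 0.611 in interphase. At the -110 bp position the order turned, with 4.03 ± 0.626 in mitosis and 3.28 ± 0.463 in interphase, as at 100 bp, with 3.91 ± 0.361 in mitosis and 3.28 ± 0.387 in interphase. A window occupied by the first flanking nucleosome in one state was therefore on a slope or in a trough of the other. The correlation of the 2 running means over positions was 0.12 (n = 2001).

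Farther out, a regular array was visible beside EP300 summits in mitosis. The smoothed mitotic profile had 10 maxima with a mean spacing of 181.8 bp over 6 gaps, while the interphase profile had 2, one on each side. The smoothed interphase profile also had 10 local maxima when no minimum height was asked for, and a deep dip raises the height that 5% of the range demands. The ripple over 100 to 800 bp was 3.61% in mitosis and 5.62% in interphase. That stretch includes the wall of the interphase dip, and over 200 to 800 bp the ripple was 3.06% in mitosis and 3.18% in interphase. The ripple over that shorter stretch was thus similar, but the stretch still held the flank of the first interphase nucleosome. The unsmoothed interphase level was 4.02 at -200 bp and 3.98 at 200 bp. At the 6 peaks and 7 troughs of the mitotic profile, peaks exceeded troughs by 0.309 in mitosis and by 0.0358 in interphase. The troughs included the summit itself, at 3.34 ± 0.409 in mitosis and 2.20 ± 0.365 in interphase. The central dip therefore enters this contrast, which is not one of the outer array alone. The peaks and troughs were chosen on the mitotic profile, which favours a larger contrast in that state. Whether the arrays beyond the first nucleosome were of similar height was therefore not settled.

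**Figure D2:**
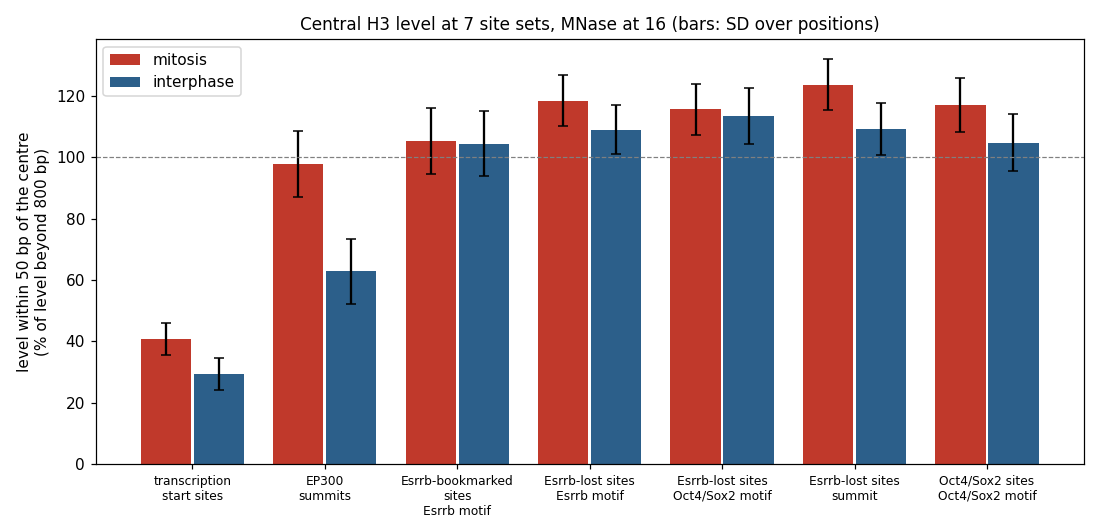
Level of H3 within 50 bp of the centre, in percent of the level more than 800 bp away, for 7 site sets in mitosis (red, left bar) and interphase (blue, right bar). Levels are means of smoothed values, and error bars are the SD of unsmoothed values over positions of 1 pooled profile, not between replicates. EP300 summits stood at 97.8% in mitosis and 62.9% in interphase, and start sites at 40.8% in mitosis and 29.4% in interphase.

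At Oct4/Sox2 sites, centred on the composite motif that the 2 factors bind together, the alternating peaks and troughs seen within about 200 bp of the motif in interphase were not seen in mitosis, where a broad rise covered that stretch. Smaller maxima lay farther out in mitosis, the nearest at -320 and 340 bp. In interphase a peak sat on the motif, troughs lay at -80 and 90 bp, and the next peaks were at -180 and 180 bp. In the trough at -80 bp the unsmoothed level was 4.09 ± 0.446 in mitosis and 3.14 ± 0.237 in interphase, and in the trough at 90 bp 4.23 ± 0.232 in mitosis and 3.23 ± 0.302 in interphase. These were ratios of 1.30 and 1.31. The peak at -180 bp had 3.91 ± 0.249 in mitosis and 4.40 ± 0.387 in interphase, and the peak at 180 bp 3.94 ± 0.241 in mitosis and 4.47 ± 0.310 in interphase. On the motif itself the order was that of the troughs, with 4.28 ± 0.325 in mitosis and 3.85 ± 0.459 in interphase.

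Over the whole array of Oct4/Sox2 sites, mitosis had the higher level at 6 of the 6 interphase troughs and at 1 of the 7 interphase peaks, the one on the motif. At those positions the peaks exceeded the troughs by -0.048 in mitosis and by 0.626 in interphase. At the 4 peaks and 4 troughs of the mitotic profile the contrast was 0.328 in mitosis and 0.062 in interphase, so each state had its larger contrast at the positions chosen on itself. The ripple was 2.49% in mitosis and 6.43% in interphase, a ratio of 0.39 and the lowest of the 7 sets. The mitotic value was above the 1.17% that scatter would give. The level within 50 bp was 4.26 ± 0.322 in mitosis and 3.78 ± 0.334 in interphase, or 116.9% of the outer level in mitosis and 104.7% in interphase.

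The Esrrb-bookmarked sites, centred on the Esrrb motif, had a stronger array in mitosis than in interphase. The ripple was 7.01% in mitosis and 4.17% in interphase, a ratio of 1.68. The mitotic value was the highest of the 7 mitotic profiles. Both states had a trough on the motif and 10 maxima, with the first pair at -90 and 80 bp in mitosis and at -100 and 90 bp in interphase. At the mitotic peaks the unsmoothed level was 4.33 ± 0.370 (-90 bp) and 4.18 ± 0.480 (80 bp) in mitosis, and 3.64 ± 0.339 (-90 bp) and 3.46 ± 0.553 (80 bp) in interphase. The next peaks of the mitotic profile, at -270 and 270 bp, held 3.79 ± 0.337 and 3.83 ± 0.288 in mitosis and 3.47 ± 0.325 and 3.43 ± 0.337 in interphase.

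The states differed more at the peaks than at the troughs of Esrrb-bookmarked sites. All 6 mitotic peaks within 600 bp were higher in mitosis, by 1.07 to 1.21 times, while the 7 troughs were at 0.981 to 1.05 times the interphase level. Of the 6 peaks chosen on the interphase profile, 5 were higher in mitosis, with ratios of 0.995 to 1.22. The peaks exceeded the troughs by 0.688 in mitosis and by 0.284 in interphase. When the positions were taken from the interphase profile instead, the contrast was 0.677 in mitosis and 0.265 in interphase, so the mitotic array was the stronger at either choice of positions. The correlation over positions was 0.80 (n = 2001). On the motif itself the states differed little, with a level within 50 bp of 3.59 ± 0.369 in mitosis and 3.42 ± 0.347 in interphase. That was 105.3% of the outer level in mitosis and 104.4% in interphase.

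**Figure D3:**
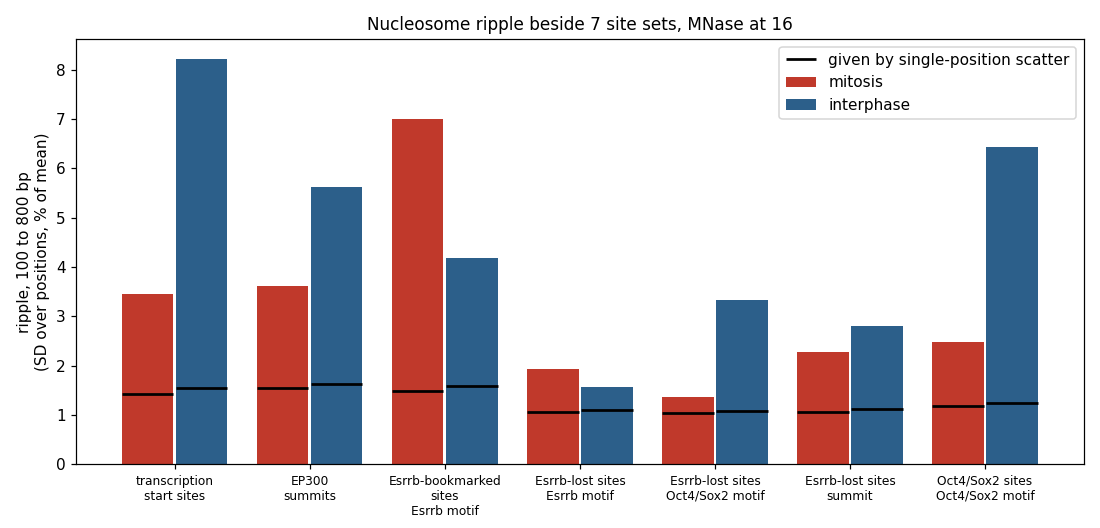
Ripple of the unsmoothed H3 profiles 100 to 800 bp from the centre (SD over positions in percent of the mean) for 7 site sets in mitosis (red, left bar) and interphase (blue, right bar), with black lines at the ripple that single-position scatter alone would give. The ripple was higher in mitosis at Esrrb-bookmarked sites (7.01% in mitosis, 4.17% in interphase) and lower in mitosis at Oct4/Sox2 sites (2.49% in mitosis, 6.43% in interphase).

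Sites that Esrrb loses in mitosis were profiled on 3 centres, the Esrrb motif, the Oct4/Sox2 motif and the summit. These centrings are not independent, since they draw on sites of the same class, and the mean levels at the Oct4/Sox2 motif and at the summit were nearly identical (3.70 in each state). Centred on the Esrrb motif, the lost sites had a level within 50 bp of 3.90 ± 0.269 in mitosis and 3.64 ± 0.266 in interphase. That was 118.5% of the outer level in mitosis and 108.96% in interphase. A maximum therefore covered the motif region in both states, where bookmarked sites had a trough. Beyond it the ripple was 1.94% in mitosis and 1.56% in interphase, where scatter would give 1.05% in mitosis and 1.10% in interphase. The array beside lost Esrrb motifs was weak in both states and the difference between them was small.

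The smoothed profile of lost Esrrb motifs showed a larger contrast than the unsmoothed one. It had 7 maxima in mitosis, with a mean spacing of 187.6 bp over 5 gaps, and 1 broad maximum in interphase. Computed on the smoothed lines, the ripple was 1.48% in mitosis and 0.158% in interphase, while the unsmoothed interphase values had 1.56%, of which scatter alone would give 1.10%. Over 200 to 800 bp the unsmoothed interphase ripple was 1.33%. The smoothed interphase curve thus held less variation than the unsmoothed values, and whether the excess over scatter was nucleosome waves was not tested.

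Centred on the Oct4/Sox2 motif, the Esrrb-lost sites resembled the Oct4/Sox2 sites. Interphase had a peak on the motif, troughs at -90 and 90 bp and peaks at -190 and 180 bp, and mitosis had a broad rise. In the troughs the unsmoothed level was 4.07 ± 0.258 (-90 bp) and 3.98 ± 0.267 (90 bp) in mitosis, and 3.52 ± 0.204 (-90 bp) and 3.58 ± 0.1999 (90 bp) in interphase. In the peaks it was 3.81 ± 0.350 (-190 bp) and 3.96 ± 0.394 (180 bp) in mitosis, and 4.12 ± 0.302 (-190 bp) and 4.22 ± 0.402 (180 bp) in interphase. The ripple was 1.36% in mitosis, little above the 1.05% that scatter would give, and 3.33% in interphase. The level within 50 bp was nearly equal, 4.11 ± 0.297 in mitosis and 4.05 ± 0.327 in interphase.

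Centred on the summit, the lost sites had the highest central level of the 7 sets in mitosis. It was 4.39 ± 0.296 in mitosis and 3.92 ± 0.305 in interphase, or 123.6% of the outer level in mitosis and 109.2% in interphase. In interphase a lower central peak was set between troughs at -100 and 100 bp, where the unsmoothed level was 4.14 ± 0.348 and 4.01 ± 0.224 in mitosis and 3.53 ± 0.335 and 3.58 ± 0.389 in interphase. The interphase peaks at -200 and 200 bp held 3.48 ± 0.232 and 3.73 ± 0.343 in mitosis and 3.96 ± 0.257 and 4.12 ± 0.364 in interphase. The interphase peaks at -200 and 200 bp were thus lower in mitosis, while the interphase peak on the summit was higher, at 4.38 in mitosis and 4.06 in interphase. The contrast at the interphase positions was -0.161 in mitosis and 0.232 in interphase. At the 3 peaks and 2 troughs of the mitotic profile it was 0.213 in mitosis and -0.261 in interphase. Each state thus had its larger contrast at the positions chosen on itself. The ripple was 2.27% in mitosis and 2.81% in interphase.

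Across the 7 sets, the level within 50 bp of the centre was higher in mitosis in all 7, by 1.02 to 1.53 times. The difference exceeded the SD over positions of both states in 4 sets, namely start sites, EP300 summits, Oct4/Sox2 sites and Esrrb-lost summits. It did not at the 2 Esrrb motif sets and at the Oct4/Sox2 motif of Esrrb-lost sites. That SD is the scatter of single unsmoothed positions and not an error of the mean, so this division of the sets is no test. At lost Esrrb motifs the difference of 0.265 fell just short of the SDs of 0.269 in mitosis and 0.266 in interphase. The ripple was lower in mitosis in 5 sets and higher in 2, and those 2 were the sets centred on an Esrrb motif. At Esrrb-bookmarked motifs the ratio was 1.68 and at lost Esrrb motifs 1.24, from smaller ripples (1.94% in mitosis and 1.56% in interphase). The other ratios were 0.39 at Oct4/Sox2 sites, 0.41 at the Oct4/Sox2 motif of Esrrb-lost sites, 0.42 at start sites, 0.64 at EP300 summits and 0.81 at Esrrb-lost summits. Over 200 to 800 bp the ratio at EP300 summits was 0.96. The direction at lost Esrrb motifs depended on the measure and the digest. The SD of the smoothed values over the same stretch gave 0.93 there and 1.00 at EP300 summits. The ripple at lost Esrrb motifs gave 0.877 with H3 at 0.5, 1.39 with H3 at 128 and 1.17 for all MNase particles at 16.

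On the smoothed profiles, the mean spacing was similar in mitosis and interphase at the 2 sets that gave a spacing in both states. At Esrrb-bookmarked sites the mean distance between successive maxima was 181.2 bp in mitosis and 186.2 bp in interphase, over 6 gaps each. At Oct4/Sox2 sites it was 184.5 bp over 2 gaps in mitosis and 182.3 bp over 6 gaps in interphase. The mitotic gaps there all lay on the negative side. On the positive side the mitotic maxima up to 800 bp were at 340 and 700 bp, too few to enter the mean and farther apart. The interphase arrays of Esrrb-lost sites had 184.7 bp at the Oct4/Sox2 motif and 182.8 bp at the summit over 6 gaps each. No spacing came out for the mitotic profiles of those 2 centrings or of start sites. Spacing and peak positions rest on the authors' smoothing, and a running mean of the unsmoothed values gave other peaks. With those peaks the spacing difference, mitosis minus interphase, was 103.2 bp at Esrrb-bookmarked sites and -87.7 bp at Oct4/Sox2 sites.

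**Figure D4:**
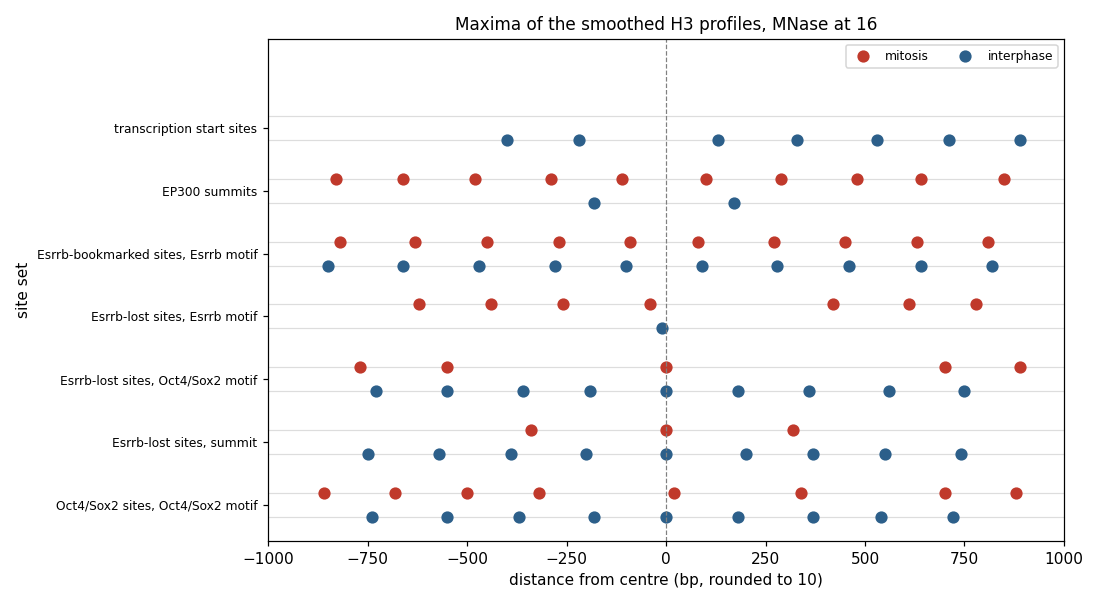
Positions of the maxima of the smoothed H3 profiles (bp from the centre, rounded to 10) for 7 site sets, mitosis (red) above interphase (blue). A maximum had to stand out by 5% of its profile's range. EP300 summits had 10 maxima in mitosis and 2 in interphase, and start sites had 0 in mitosis and 7 in interphase.

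The lighter and the heavier H3 digest and the undivided MNase fragments were set beside these values. Mean levels differed between the states in those experiments, at 1.13 to 1.19 times the interphase mean in mitosis for H3 at 0.5, at 0.780 to 0.893 times for H3 at 128 and at 0.748 to 0.826 times for all MNase particles at 16. Central levels are therefore compared as percent of each profile's own outer level. H3 at 0.5 and 128 pooled 2 libraries per state, and all particles pooled 3. The comparisons are of pooled profiles, and the differences between experiments were not tested.

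Relative to the outer level, the filling of the EP300 dip in mitosis was seen with the 2 stronger H3 digests. With H3 at 0.5 the centre was at 65.6% in mitosis and 59.2% in interphase, a ratio of 1.11. At 16 the ratio was 1.56 on this scale. At 128 the centre was at 119.7% in mitosis and 76.1% in interphase, a ratio of 1.57. The outer level at 128 was itself lower in mitosis, at 1.19 against 1.58 in interphase. Before scaling, the ratio of central H3 levels was 1.22 at 0.5, 1.53 at 16 and 1.18 at 128. The split between the digests thus depends on the scaling. Without the H3 step, at 16, the centre was at 106.1% in mitosis and 101.1% in interphase, a ratio of 1.05. Without immunoprecipitation the centre thus stood at or above the outer level in both states. It was still a trough between flanking maxima, whose highest value was 7.28 at 100 bp in mitosis and 10.6 at 170 bp in interphase, while the lowest near the summit was 6.37 in mitosis and 8.09 in interphase.

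At start sites the ratio of the states also differed between digests. The scaled central level was 32.98% in mitosis and 29.4% in interphase with H3 at 0.5, and 64.9% in mitosis and 34.1% in interphase with H3 at 128. These are ratios of 1.12 and 1.904, beside 1.39 at 16 on the same scale. For all particles at 16 the values were 50.0% in mitosis and 46.5% in interphase. The mitotic centre of start sites thus stood higher relative to its flanks with each stronger digest, while the interphase centre stayed between 29.4% and 34.1%.

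The contrast between arrays at Esrrb-bookmarked and at Oct4/Sox2 sites appeared in all 4 experiments. The ripple at Esrrb-bookmarked sites was 6.31% in mitosis and 4.37% in interphase with H3 at 0.5. It was 7.05% in mitosis and 4.04% in interphase with H3 at 128, and 7.08% in mitosis and 4.11% in interphase for all particles at 16. The ratios were 1.44, 1.75 and 1.72. At Oct4/Sox2 sites the ripple was 3.24% in mitosis and 6.36% in interphase with H3 at 0.5. It was 2.83% in mitosis and 6.65% in interphase with H3 at 128, and 2.34% in mitosis and 6.86% in interphase for all particles, with ratios of 0.51, 0.43 and 0.34. The libraries of these experiments are separate ones by their titles, so these were values from other libraries of the same cells. The scaled central level at Esrrb-bookmarked motifs stayed near 1 in all of them, with ratios of 0.969 for H3 at 0.5, 1.04 for H3 at 128 and 0.949 for all particles. At Oct4/Sox2 motifs the ratio was 1.05 for H3 at 0.5, 1.12 at 16, 1.23 at 128 and 1.00 for all particles.

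**Figure D5:**
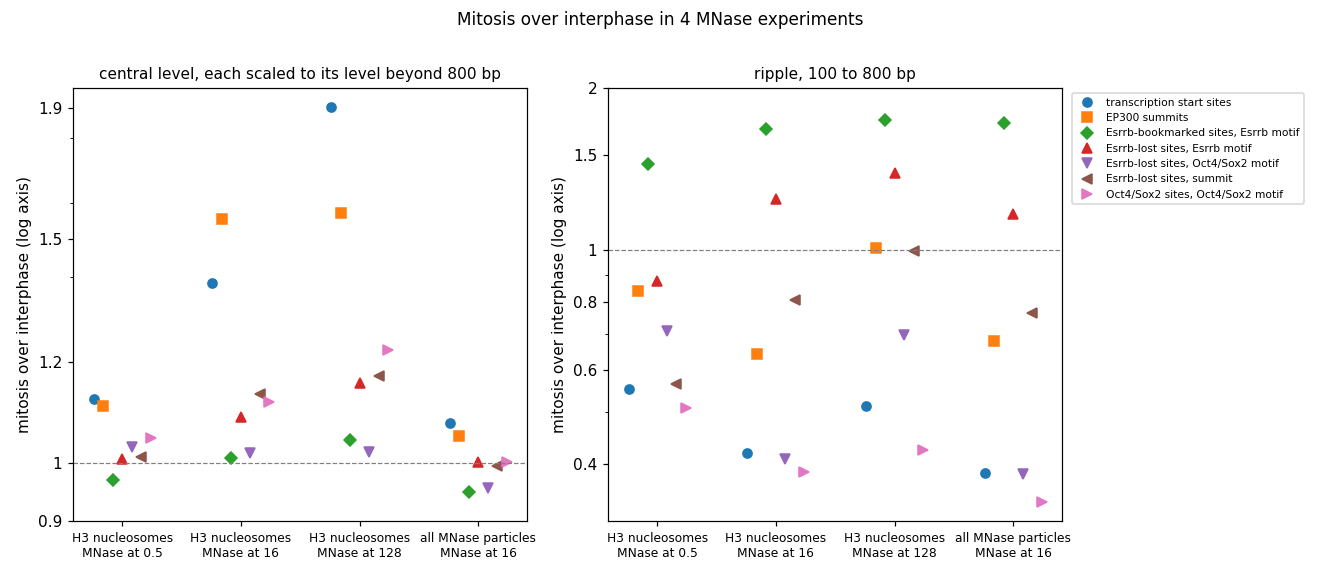
Mitosis over interphase in 4 MNase experiments (columns) for 7 site sets (symbols), on log axes, for the central level scaled to the level beyond 800 bp (left) and for the ripple 100 to 800 bp from the centre (right). The ripple ratio lay above 1 at Esrrb-bookmarked sites in all 4 experiments (1.44 to 1.75) and below 1 at Oct4/Sox2 sites in all 4 (0.34 to 0.51).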

How the data were processed

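MNase-H3 fragments of mouse ES cells were analysed from the authors' deposited profile table. The unit of the deposited values is not stated, and their scale, the fragment-length filter, the number of sites and genome positions are not given in the sources used here. Per the file headers, each line gives a state, a concentration, a region, a centre and a data type, of which gp_mean (smoothed) and midpoint (unsmoothed) were used. The submitters' processing notes name Bowtie2 and mm9 without a version or role. Libraries are pooled per state, so depth per library, replicate error and tests are not to be had.

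Levels were means of smoothed values within 50 bp of the centre. Maxima needed a prominence of 5% of the profile's range, positions were rounded to 10 bp, and spacing was averaged over sides with at least 3 maxima between 40 and 800 bp. Ripple was a running mean of 41 bp minus one of about 300 bp. It was added after the profiles were seen. Levels at peaks and troughs are means of unsmoothed values within 10 bp. Measures were tested on simulated profiles. Members and measures were chosen with earlier results of these data known. Python 3.11.15, numpy 2.4.6, scipy 1.17.1 and matplotlib were used. Alternatives were window widths, sides, scalings, unsmoothed values, prominences and stretches.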

Additional observations from a re-analysis of the deposited data

Results flagged for a closer look

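The ripple beside Esrrb-lost sites centred on the Esrrb motif went opposite ways in 2 experiments. Mitosis over interphase was 0.877 with H3 at 0.5 and 1.24 with H3 at 16. With H3 at 0.5 the ripple was 1.82% in mitosis and 2.08% in interphase, and at 16 it was 1.94% in mitosis and 1.56% in interphase. The difference was not tested, as each state is 1 pooled profile.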

How the results depend on the processing

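The ratio of central levels kept its direction in 48 of 49 alternative values (narrower and wider windows, unsmoothed values, 2 scalings, each side alone), each within 1.5-fold of the ratio reported. The exception was the Oct4/Sox2 motif of Esrrb-lost sites, at 0.996 within 25 bp, 1.02 as reported and 1.0101 to 1.05 in its other alternatives.

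The array amplitude, the SD of smoothed values 100 to 800 bp from the centre in percent of the mean, gave mitosis over interphase ratios of 0.80 at start sites, 1.00 at EP300 summits, 1.74 at Esrrb-bookmarked sites, 0.93 at lost Esrrb motifs, 0.80 at the Oct4/Sox2 motif and 0.62 at the summit of lost sites, and 0.59 at Oct4/Sox2 sites. Ripple in its place gave 0.421 at start sites, 0.643 at EP300 summits, 0.409 at the Oct4/Sox2 motif of lost sites and 0.387 at Oct4/Sox2 sites. Over 200 to 800 bp the ripple gave 0.415, 0.961, 0.537 and 0.482 at these sets in the same order. At EP300 summits the positive side alone gave 1.011. At Esrrb-bookmarked sites the plain SD of unsmoothed values, which holds the scatter of single positions, gave 1.05. At lost Esrrb motifs the direction turned, with 1.73 for highest minus lowest, 1.31 over 100 to 500 bp, 1.24 for ripple and 1.22 for ripple over 200 to 800 bp. At lost summits highest minus lowest gave 0.981 and unsmoothed values 0.932. The ripple alternatives were chosen after seeing the data.

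The distance between the first maxima, mitosis minus interphase, was -140 bp at EP300 summits, -10 bp at Esrrb-bookmarked sites, 880 bp at the Oct4/Sox2 motif and 270 bp at the summit of lost sites, and 280 bp at Oct4/Sox2 sites. With maxima of a running mean of unsmoothed values it was -190, 80, -120 and -150 bp at EP300, Esrrb-bookmarked, lost Oct4/Sox2 motif and Oct4/Sox2 sites. At lost summits it was 260 bp. A prominence of 2% gave 560 bp at the lost Oct4/Sox2 motif, and 10% gave 650 bp at Oct4/Sox2 sites. The spacing difference was -5.0 bp at Esrrb-bookmarked sites and 2.17 bp at Oct4/Sox2 sites, and with the running mean 103.2 and -87.7 bp. The cause of these changes was not tested. With the running mean, the distance thus kept its direction at EP300 summits and lost summits and turned at the other 3 sets, and the spacing difference turned at both sets measured.

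No paired analysis was possible because the table pools the libraries of a state. For the same reason no library was left out.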
